A study of Mus musculus with 4 samples.

Results

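The genes described here encode molecules by which circulating leukocytes hold on to the vessel wall. They are a list of 9 genes, taken by symbol from the 55421 genes counted in uteri of pregnant mice. The endothelial side has 4 genes (Selp, Sele, Icam1, Vcam1) and the leukocyte side has 5 genes (Selplg, Itga4, Itgal, Itgam, Itgb2). All 9 were found in the count tables, and 8 passed the expression filter of at least 1 CPM (counts scaled to the library size) in at least 2 libraries. Sele did not pass it.

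RNA sequencing was performed on uterine tissue of 2 WT mice (strain C57BL/6J) and 2 Qa-2- mice (strain B6.Cg-H2b3/FlaCmwJ, also called B6.K1) at gestational age E18.5, with 1 library per mouse. The RNA came from a small piece of each frozen uterus, and which part was taken is not given in the sources used here. Qa-2 is a non-classical MHC class I molecule encoded by genes of the H2-Q region. B6.K1 is an H2 congenic strain that arose spontaneously in crosses between congenic strains, so the comparison is of strains and not of a targeted deletion. The Qa-2- and WT mice came from different suppliers, and both were mated within their own strain as young adults. The libraries held between 33286390 and 41041299 counted read pairs, and both WT libraries were deeper. H2-Q7, one of the genes encoding Qa-2, had 157.4 and 33.2 CPM in WT replicates 1 and 2 against 0.113 and 0.0572 CPM in Qa-2- uteri, in accordance with the labels.

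A leukocyte leaves the blood in steps. Selectins on activated endothelium (Selp, Sele) bind sugars carried by PSGL-1, the product of Selplg, and the cell rolls. Integrins of the leukocyte then bind firmly to the endothelial immunoglobulin-type molecules ICAM-1 and VCAM-1. Itgal and Itgam encode alpha chains that pair with the common beta chain encoded by Itgb2, giving LFA-1 and Mac-1, both of which bind ICAM-1. Itga4 encodes the alpha chain of VLA-4, the main receptor for VCAM-1. In the pregnant uterus such adhesion is one route by which macrophages, granulocytes and NK cells enter the tissue.

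The genes lie on several chromosomes of GRCm38 and all outside the H2 region of chromosome 17. Sele (ENSMUSG00000026582; chromosome 1, 164048234 to 164057677) and Selp (ENSMUSG00000026580; chromosome 1, 164115264 to 164150026) lie on the same strand with 57.6 kb between them. Icam1 (ENSMUSG00000037405) lies on chromosome 9 from 21015985 to 21028817 and Vcam1 (ENSMUSG00000027962) on chromosome 3 from 116109949 to 116129688. Itgal (ENSMUSG00000030830; 127296260 to 127335138) and Itgam (ENSMUSG00000030786; 128062640 to 128118491) are both on chromosome 7, with 727.5 kb between them. Itgb2 (ENSMUSG00000000290) is on chromosome 10 from 77530252 to 77565708, Itga4 (ENSMUSG00000027009) on chromosome 2 from 79255426 to 79333123 and Selplg (ENSMUSG00000048163) on chromosome 5 from 113818536 to 113832644. The values are for whole genes, that is, all annotated exons including UTRs.

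Expression of the 9 genes was compared between WT and Qa-2- uteri. No member passed the test adjusted over all genes. Of the 8 members tested, the highest fold was that of Itgam, 2.06-fold higher in WT, followed by Vcam1 with 1.86-fold, Selp with 1.52-fold and Icam1 with 1.49-fold. Sele, which entered only the fit without the filter, is given with its counts. In the quasi-likelihood test of edgeR, adjusted by Benjamini-Hochberg over 14492 genes, 0 of the 8 members tested had an adjusted p under 0.05, and the adjusted p ran from 0.310 to 0.928. The background was the same, as 0.0% of all genes passed (smallest adjusted p 0.17). At an unadjusted p under 0.05 there was 1 of 8 members, Itgam, higher in WT, against 15.2% of all genes (8.09% higher and 7.09% lower in WT). DESeq2's Wald test called 4.83% of all genes (2.79% higher and 2.04% lower in WT) and 0 of the 8 members. For one gene, 2 mice per group allow a two-sided exact permutation p of 0.33 at the least.

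Of the 8 members, 7 had a fitted value higher in WT and 1, Itga4, lower, while 51.1% of all genes were higher and 48.9% lower. Only Selp, Vcam1, Itgam and Itgb2, 4 of the 8, were higher in WT under each alternative run. Icam1, Selplg, Itgal and Itga4 changed sign under at least 1 of them. Of these 13 alternatives, 9 refitted the same 4 libraries, and the share of all genes that kept their sign was not taken. The median difference of WT against Qa-2- on the log2 scale was 0.53 over the 8 members and 0.01 over all genes. On the endothelial side the median was 0.60, which became 0.27 without WT replicate 1 and 0.99 without WT replicate 2. On the leukocyte side it was 0.37, which became -0.056 without WT replicate 2 and 0.71 without WT replicate 1. In 3 of the 8 (Selp, Itgam, Itgb2), both WT libraries were above both Qa-2- libraries, an order that 25.4% of all genes had. No member had the opposite order, which 24.5% of all genes had, so that 50.0% of all genes did not overlap between the groups in either direction. The 3 members are read against that background and not as a result of their own.

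**Figure D1:**
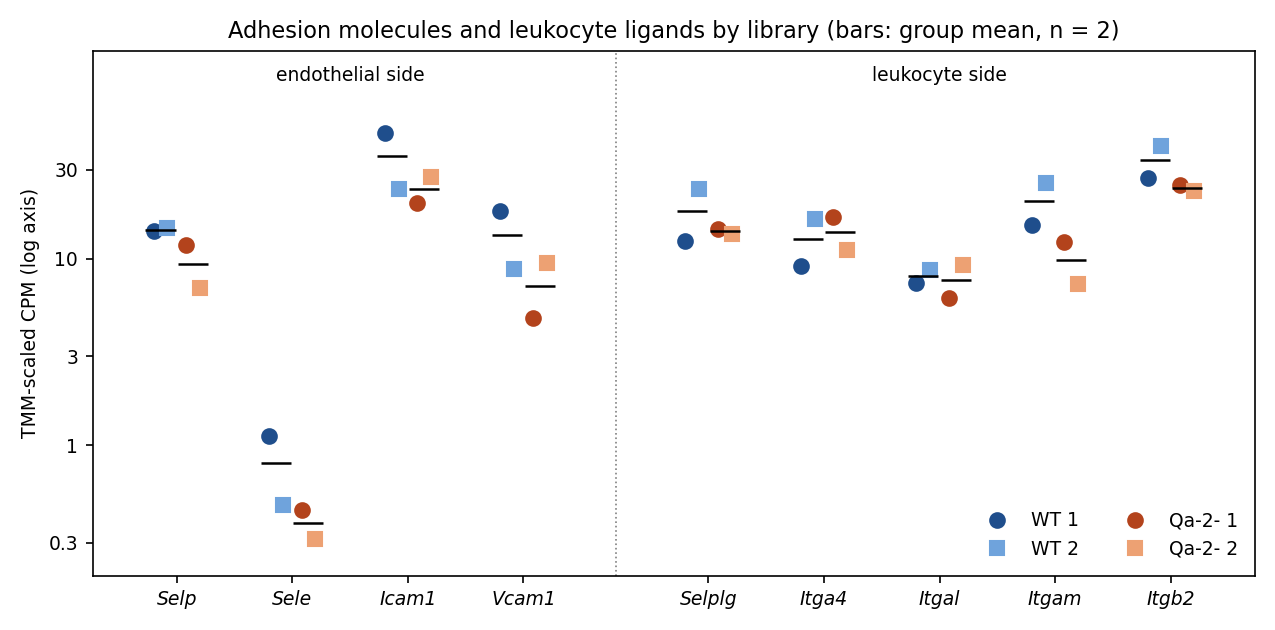
TMM-scaled CPM (log axis) of the 9 genes in the 4 libraries, with endothelial genes on the left and leukocyte genes on the right. Points are single mice and bars the group mean of 2 mice. WT replicate 1 was highest for Sele, Icam1 and Vcam1, and WT replicate 2 was highest for Selplg, Itgam and Itgb2.

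Selp encodes P-selectin, which endothelium and platelets store in granules and bring to the surface on activation. It had 14.05 and 14.5 CPM in the WT libraries and 11.9 and 6.95 CPM in the Qa-2- libraries. Both WT mice were thus close to each other, and the Qa-2- mice differed from each other by more than the gap between the groups. WT had a mean of 14.3 ± 0.336 CPM against 9.40 ± 3.48 CPM (SD, n = 2 each). The log2 fold change was 0.60 (standard error 0.31), with an edgeR adjusted p of 0.406. It was 0.26 without Qa-2- replicate 2 and 1.04 without Qa-2- replicate 1. Of the 6 platelet and megakaryocyte markers, Gp9, Gp1ba and Gp6 stayed under 0.6 CPM in each library. Pf4 had a log2 fold change of 0.60 and was higher in both WT libraries, as were 25.4% of all genes. Ppbp with -0.75 and Itga2b with -0.50 were lower in both, as were 24.5% of all genes. The summed level of the list was 93.0 and 135.1 TPM (counts per exon length, scaled to the library) in WT and 104.8 and 75.8 TPM in Qa-2- uteri, most of it Pf4. The part of platelets in the Selp value was not tested.

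Sele encodes E-selectin, which endothelium makes only after activation. It had 45 and 18 counts in WT and 16 and 11 counts in Qa-2- uteri, or 1.12, 0.477, 0.451 and 0.314 CPM. It was the scarcest member in every library, and WT replicate 1 stood above the other three. The exact 95% Poisson interval of WT replicate 2, from 10.7 to 28.4 counts, overlapped that of Qa-2- replicate 1, from 9.15 to 26.0 counts. These intervals cover counting error only. In the fit without the expression filter Sele was higher in WT by 1.07 on the log2 scale (standard error 0.70), with an edgeR adjusted p of 0.686.

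Icam1 encodes ICAM-1, carried by endothelium and by many leukocytes and epithelial cells. It was the most abundant endothelial member, with 47.2 and 23.5 CPM in WT against 19.8 and 27.5 CPM in uteri of Qa-2- mice. WT replicate 2 lay between both Qa-2- libraries, so the groups overlapped. WT had a mean of 35.3 ± 16.8 CPM against 23.7 ± 5.42 CPM (SD, n = 2), and the log2 fold change was 0.58 (standard error 0.37). It was 0.99 without WT replicate 2 and 0.36 without Qa-2- replicate 1. Without WT replicate 1 it was -0.037, so the direction of the Icam1 difference rested on that library.

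Vcam1 encodes VCAM-1, which is found on activated endothelium and in the uterus also on stromal cells. It had 17.9 and 8.78 CPM in WT against 4.82 and 9.52 CPM in Qa-2- uteri. The groups overlapped, as WT replicate 2 was below Qa-2- replicate 2. Its log2 fold change of 0.90 (standard error 0.48) was the largest of the 3 endothelial members tested and had an edgeR adjusted p of 0.429. Without WT replicate 1 it was 0.27 and without Qa-2- replicate 1 0.48, while without Qa-2- replicate 2 it was 1.47.

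Sele, Icam1 and Vcam1 were each highest in WT replicate 1, whereas Selp was nearly equal in both WT libraries. Promoter windows of 250 bases before the RefSeq gene start (GRCm38.p6, plus strand) are shown for the endothelial members in the RefSeq table, to let the reader compare genes that were high in the same library with Selp. Capitals mark matches, on either strand, to GGNNNTTCC (a shortened NF-kB type site), TGANTCA (AP-1), TTCNNNGAA (STAT) and TATAAA, a core promoter element. Overlapping matches run together.
Selp, chr1:164115014-164115263: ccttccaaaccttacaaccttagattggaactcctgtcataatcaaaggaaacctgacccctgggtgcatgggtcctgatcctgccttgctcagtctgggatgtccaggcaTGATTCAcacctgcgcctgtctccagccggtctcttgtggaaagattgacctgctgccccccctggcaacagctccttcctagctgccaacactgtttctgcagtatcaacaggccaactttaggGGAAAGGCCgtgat
Sele, chr1:164047984-164048233: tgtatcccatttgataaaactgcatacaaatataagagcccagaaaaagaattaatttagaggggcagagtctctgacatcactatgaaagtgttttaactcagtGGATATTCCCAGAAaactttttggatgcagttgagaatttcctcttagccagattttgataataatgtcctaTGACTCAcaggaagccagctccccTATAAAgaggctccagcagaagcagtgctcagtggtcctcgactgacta
Icam1, chr9:21015690-21015939: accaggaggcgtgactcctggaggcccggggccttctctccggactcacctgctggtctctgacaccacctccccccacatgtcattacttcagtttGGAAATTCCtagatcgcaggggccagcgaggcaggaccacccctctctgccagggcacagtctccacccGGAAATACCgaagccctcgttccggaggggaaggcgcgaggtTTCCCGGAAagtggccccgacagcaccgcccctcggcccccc
GGNNNTTCC matched in all 3 windows, with 1 match each in Selp and Sele and 2 in Icam1, and 15.7% of the 32851 promoter windows of the same length hold it. The match in Sele (GGATATTCC) lies 145 to 137 bases before the start, next to a TTCNNNGAA match (TTCCCAGAA) that shares its last 4 bases. TTCNNNGAA was also found in Icam1 (TTCCCGGAA, 42 to 34 bases before the start) and occurs in 7.02% of windows. TGANTCA was found in Selp (TGATTCA) and Sele (TGACTCA) and occurs in 6.75% of windows, and TATAAA was found in Sele and occurs in 12.4%. A match describes the letters of the window only. Windows were found for 5 of the 9 members, and Vcam1, Selplg, Itgal and Itgb2 had no entry.

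Itgb2 encodes the beta chain CD18, shared by all leukocyte integrins of its family. It had 27.1 and 40.03 CPM in WT against 24.9 and 23.1 CPM in uteri of Qa-2- mice. Both WT libraries were higher, but WT replicate 1 stood closer to the Qa-2- libraries than to WT replicate 2. With means of 33.6 ± 9.12 against 23.99 ± 1.22 CPM (SD, n = 2), the log2 fold change was 0.48 (standard error 0.23), and edgeR gave an adjusted p of 0.386. Without WT replicate 2 it was 0.18, and it was 0.71 without WT replicate 1.

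Itgam encodes CD11b, the alpha chain of Mac-1 on macrophages, granulocytes and NK cells, which is used with Gr-1 to define myeloid-derived suppressor cells. It had 15.2 and 25.3 CPM in WT against 12.3 and 7.32 CPM in uteri of Qa-2- mice, so that the groups did not overlap. The log2 fold change of 1.04 (standard error 0.37) was the largest of the 8 members tested, with an edgeR adjusted p of 0.310 and 0.133 by DESeq2. With each library left out in turn it stayed between 0.63 and 1.46. The lowest value was without WT replicate 2.

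Markers of cells that carry Itgam were measured beside it. The summed level of 8 macrophage and monocyte markers was 1284 and 1887 TPM in WT against 1090 and 861.4 TPM in Qa-2- uteri, with 4 of the 8 genes higher in both WT libraries (25.4% of all genes) and a median log2 fold change of 0.51. Of these, 3 had an unadjusted p under 0.05 (15.2% of all genes), and DESeq2 called 3, Cd68, C1qa and C1qb (4.83% of all genes). Relative to this sum, the Itgam level was at 0.00643 and 0.00785 in WT and at 0.00719 and 0.00517 in Qa-2- uteri, and the groups overlapped. Of the 8 neutrophil markers, Ly6g, Elane and Camp had at most 0.0564 CPM in any library, and Mpo at most 0.636 CPM. Of the others, Csf3r, which myeloid cells beyond neutrophils also make, had 4.21 and 6.42 CPM in WT against 3.63 and 3.12 CPM, without overlap of the groups. S100a8 ran from 0.169 to 1.57 CPM and S100a9 from 0.507 to 2.96 CPM, both with overlap and both highest in WT replicate 1. The summed level of the 8 neutrophil markers, 1093 and 551.9 TPM in WT against 390.7 and 4394 TPM in Qa-2- uteri, was nearly all Ltf. Smooth muscle markers showed the same order of libraries as Itgam. Their summed levels were 21440 and 35827 TPM in WT and 20356 and 11340 TPM in Qa-2- uteri. In whole tissue, fewer cells of a type and less RNA per cell cannot be told apart, and the part of the tissue make-up in these values was not tested.

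Itgal encodes CD11a, the alpha chain of LFA-1, found on nearly all leukocytes and at high levels on lymphocytes. It had 7.42 and 8.70 CPM in WT against 6.17 and 9.23 CPM in uteri of Qa-2- mice, and both WT values lay between those of the Qa-2- mice. The log2 fold change was 0.07 (standard error 0.29). Its sign changed with library totals alone (-0.035) and without WT replicate 2 or Qa-2- replicate 1, so no direction can be given for Itgal.

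Itga4 encodes CD49d, the alpha chain of VLA-4 on lymphocytes and monocytes. It had 9.17 and 16.2 CPM in WT against 16.8 and 11.1 CPM in uteri of Qa-2- mice. The replicates of each group differed more than the groups, with means of 12.7 ± 4.99 and 13.9 ± 4.03 CPM (SD, n = 2). The log2 fold change was -0.14 (standard error 0.36), and its sign changed without WT replicate 1 or without Qa-2- replicate 1.

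Selplg encodes PSGL-1, the leukocyte ligand of P-selectin. It had 12.4 and 23.8 CPM in WT against 14.4 and 13.6 CPM in uteri of Qa-2- mice. WT replicate 2 alone was high, and WT replicate 1 was the lowest of all. The log2 fold change was 0.37 (standard error 0.34) with all libraries, -0.18 without WT replicate 2 and 0.74 without WT replicate 1.

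Both sides were compared as TPM, that is, per exon length. Itgb2 had the highest level, with a mean of 28.0 TPM over the 4 libraries, followed by Icam1 with 19.8, Selplg with 11.2, Itgam with 8.84 and Selp with 7.94 TPM. Then came Itgal with 3.57, Vcam1 with 3.36 and Itga4 with 2.87 TPM, and last Sele with 0.590 TPM. Neighbours in this order overlapped in their range over the libraries, except that Selp (lowest 4.82 TPM) stayed above Itgal (highest 4.30 TPM) and Itga4 (lowest 1.79 TPM) above Sele (highest 1.05 TPM). Itgb2 was first in 3 libraries, and Icam1 was first in WT replicate 1. The exon length is that of all annotated transcripts together, which lowers the TPM of genes with long alternative exons.

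The 4 endothelial genes together had 44.8 and 28.9 TPM in WT and 25.3 and 27.7 TPM in Qa-2- uteri. The 5 leukocyte genes together had 45.4 and 77.1 TPM in WT and 51.4 and 44.1 TPM in Qa-2- uteri. In WT replicate 1 the sums were nearly equal (ratio 0.989), whereas in WT replicate 2 the endothelial sum was 0.375 of the leukocyte sum. The Qa-2- libraries, at 0.492 and 0.629, lay between them. The mean log2 ratio was -0.72 ± 0.99 in WT and -0.85 ± 0.25 in Qa-2- uteri (SD, n = 2), a difference of 0.13 that was far smaller than the spread between the WT mice. The balance of both sides thus varied most between the WT mice.

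**Figure D2:**
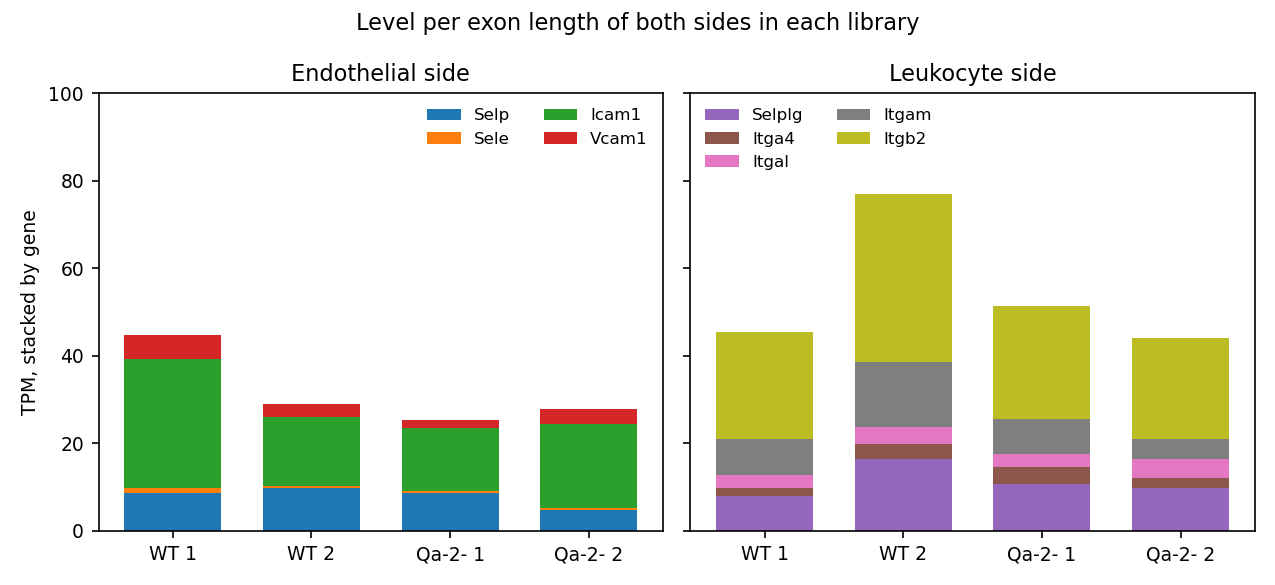
TPM of each gene, stacked, for the endothelial side (left) and the leukocyte side (right) in the 4 libraries. The endothelial sum was highest in WT replicate 1 (44.8 TPM) and the leukocyte sum in WT replicate 2 (77.1 TPM).

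Receptor and ligand were also compared pair by pair, as ratios of TPM within a library. Vcam1 over Itga4 had the widest range by fold, from 0.452 in Qa-2- replicate 1 to 3.08 in WT replicate 1. Icam1 over Itgal was 9.58 in WT replicate 1 and between 4.07 and 4.84 in the other three. Icam1 over Itgam was highest in Qa-2- replicate 2, at 4.33, and lowest in WT replicate 2, at 1.07. Selp over Selplg ran from 0.495 to 1.10. The groups overlapped for all of these pairs and for Sele over Selplg.

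**Figure D3:**
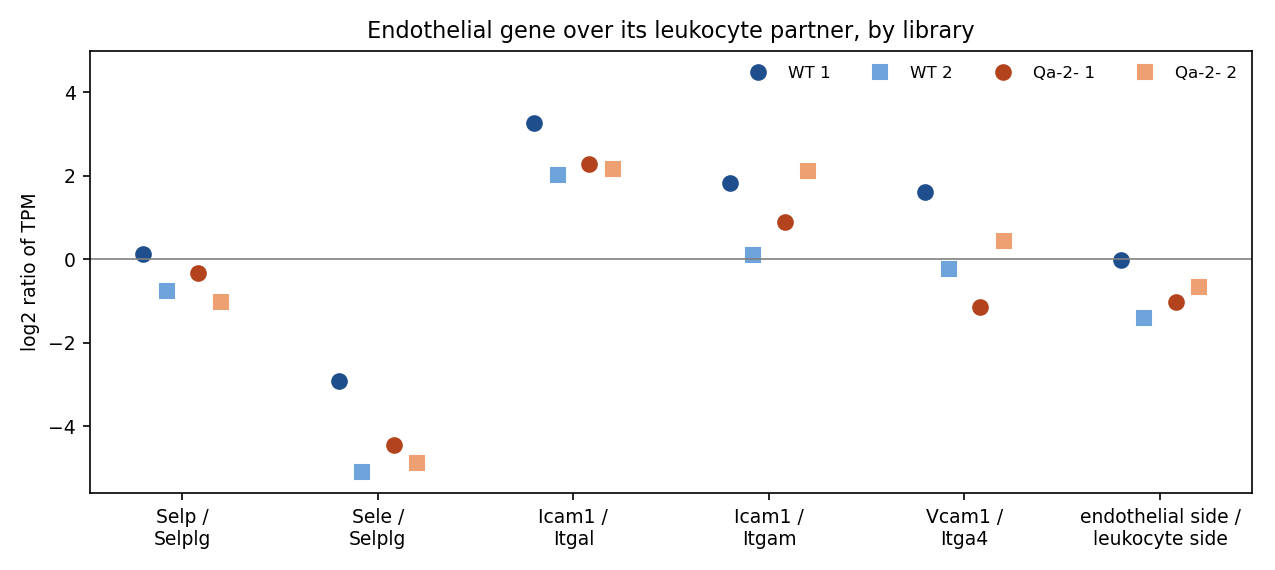
Log2 ratio of TPM of an endothelial gene over its leukocyte partner in each library, with the ratio of the summed sides on the right. WT and Qa-2- libraries overlapped in each pair, and the summed sides had log2 ratios from -1.41 to -0.02.

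The alpha chains were set against their common beta chain. Itgam was at 0.340 and 0.384 of the Itgb2 level in WT and at 0.302 and 0.192 in Qa-2- uteri. Itgal was at 0.127 and 0.101 of Itgb2 in WT and at 0.115 and 0.185 in Qa-2- uteri. Mac-1 and LFA-1 alpha chain RNA thus stood at 2.68 and 3.803 to 1 in WT and at 2.62 and 1.04 to 1 in Qa-2- uteri. The Qa-2- value of replicate 1 was close to WT replicate 1, and no test was made of these ratios. All alpha chains of the family (Itgal, Itgam, Itgax, Itgad) summed to between 0.486 and 0.615 of Itgb2 in the 4 libraries, and the groups overlapped. Itgb1, the usual beta partner of Itga4, had a mean of 960.8 TPM and is made by most cells of the tissue. Itga4 was at 0.00191 and 0.00246 of the Itgb1 level in WT and at 0.00411 and 0.00415 in Qa-2- uteri.

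The endothelial members were then set beside the endothelium itself. Endothelial markers (Kdr, Tek, Tie1, Egfl7, Emcn, Vwf, Erg, Sox17, Cldn5) summed to 544.0 and 506.2 TPM in WT and to 274.8 and 251.7 TPM in Qa-2- uteri. In 8 of these 9 genes both WT libraries were above both Qa-2- libraries, an order that 25.4% of all genes had, with Sox17 as the exception, and the median log2 fold change was 0.89. In edgeR 0 of the 9 had an adjusted p under 0.05 and 8 an unadjusted p under 0.05 (15.2% of all genes), and DESeq2 called 7 (4.83% of all genes). The 4 adhesion genes together stood at 0.0824 and 0.0572 of the marker sum in WT and at 0.0921 and 0.110 in Qa-2- uteri. Relative to this marker sum they were thus lower in both WT libraries, whereas their own sum was higher in both. Cldn5, with the largest log2 fold change of the markers (1.66), weighed heavily in the sum. It had 253.9 and 184.5 TPM in WT against 81.8 and 72.7 TPM in Qa-2- uteri. The order of the groups against this sum thus depends on Cldn5. The log2 ratio of adhesion genes to marker sum was -3.60 and -4.13 in WT and -3.44 and -3.18 in Qa-2- uteri. It differed by -0.55 between the group means (SD 0.37 in WT and 0.18 in Qa-2- uteri), and WT replicate 2 was the farthest out. Taken singly, Selp, Sele, Icam1 and Vcam1 overlapped between the groups on this scale.

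Other genes of the endothelial junction and adhesion list, 11 of 13 tested, had a median log2 fold change of 0.65. Of these, 0 had an adjusted p under 0.05, 6 an unadjusted p under 0.05, all higher in WT (8.09% of all genes), and 7 were higher in both WT libraries (25.4% of all genes). Cdh5, which encodes VE-cadherin of the endothelial junction, had 444.3 and 239.0 CPM in WT against 115.9 and 105.2 CPM in Qa-2- uteri (log2 fold change 1.63, standard error 0.34). Icam2, the constitutive endothelial relative of Icam1, had 18.9 and 21.9 CPM in WT against 10.6 and 9.43 CPM (log2 fold change 1.03, standard error 0.19). Both had an edgeR adjusted p of 0.246, and DESeq2 called both. Icam1 was at 1.09 and 0.469 of the Icam2 level in WT and at 0.820 and 1.27 in Qa-2- uteri. Mcam and Cd34, the most abundant of the list, had log2 fold changes of 0.90 and -0.32, with overlapping groups, and Cd99l2, which guides leukocytes through the junction, had 0.01. Madcam1 and Glycam1, the addressins of gut and lymph node vessels, did not pass the filter, and Glycam1 had no count in any library.

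**Figure D4:**
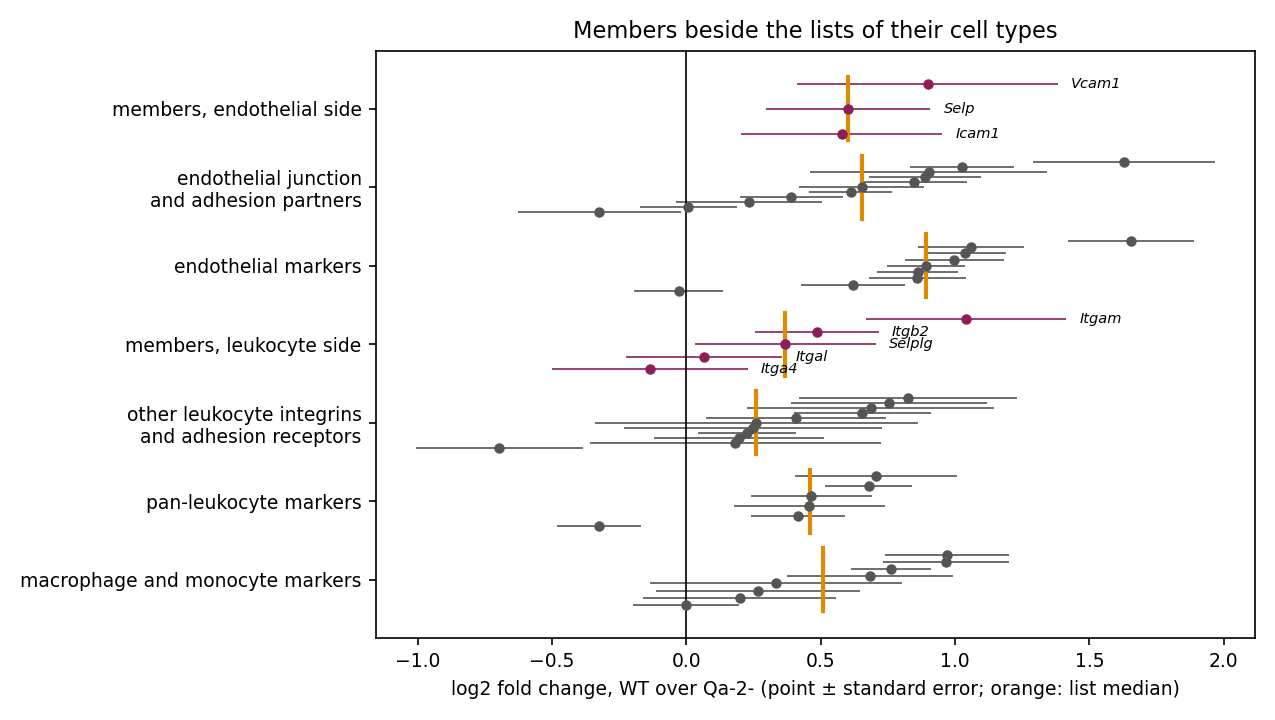
Log2 fold change, positive where WT was higher (x axis), with its standard error for the 8 members tested and for 5 lists of related genes (grey), with list medians in orange. Itgal and Itga4 lie near 0, and the endothelial markers have a median of 0.89 against 0.60 for the endothelial members.

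The leukocyte members were set beside 6 pan-leukocyte markers. These summed to 180.5 and 230.3 TPM in WT and to 163.3 and 156.0 TPM in Qa-2- uteri, with a median log2 fold change of 0.46. Of the 6 markers, 5 were higher in both WT libraries (25.4% of all genes). Ptprc, which encodes CD45, was lower in both, as were 24.5% of all genes (33.5 and 38.7 CPM against 44.5 and 45.9 CPM). The 5 leukocyte members together stood at 0.251 and 0.335 of the marker sum in WT and at 0.315 and 0.283 in Qa-2- uteri, so the groups overlapped on this scale. Itgb2 followed the markers most closely, with a difference in log2 ratio of -0.03 between the group means. Relative to this marker sum, Itgal was at 0.0171 and 0.0169 in WT and at 0.0183 and 0.0276 in Qa-2- uteri. Itga4 was at 0.00993 and 0.0148 in WT and at 0.0235 and 0.0156 in Qa-2- uteri. Both were thus lower in both WT libraries on this scale, with differences of -0.40 and -0.66 in log2 ratio. Ptprc had little weight in the sum, with 4.99 to 7.76 TPM, so the sum says little of the order against Ptprc. No share over all genes was taken for such ratios. Of the 5 T cell markers, Cd3d, Cd3e, Cd3g and Cd8a had at most 1.06 CPM, and Cd4 had 0.972 and 2.89 CPM in WT against 3.27 and 2.92 CPM, lower in both WT libraries. Of the 6 NK markers, Ncr1, Klrb1c, Klrk1, Gzma and Eomes had between 0.224 and 2.17 CPM. The other one, the effector gene Prf1, stood apart in WT replicate 1, with 78.2 CPM against at most 4.55 CPM elsewhere.

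Of the other integrins and adhesion receptors, 11 of 13 were tested and had a median log2 fold change of 0.26, which was 0.53 without WT replicate 1, 0.48 without Qa-2- replicate 2 and 0.10 without Qa-2- replicate 1. At an unadjusted p under 0.05 (15.2% of all genes) there was 1 gene, Itgb7, a beta chain that can also pair with Itga4, with 7.37 and 6.44 CPM in WT against 4.25 and 4.52 CPM in uteri of Qa-2- mice. None reached an adjusted p under 0.05 in edgeR, and DESeq2 called 0. Without overlap, 4 were higher in WT (25.4% of all genes) and 1 lower (24.5%). Itgb1 and Itga5, the most abundant, had log2 fold changes of 0.75 and 0.69, and Itga1, a collagen receptor chain, had 0.82. Itga6, a laminin receptor chain of epithelium and endothelium, was lower in both WT libraries, with a log2 fold change of -0.70 (adjusted p = 0.363 in edgeR), and Itga2 had 0.18. These 5 chains are made by muscle, stroma or epithelium as well as by leukocytes.

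For the enzymes that build selectin ligands on PSGL-1, 8 of 10 genes were tested. The median log2 fold change was 0.34 (0.024 without WT replicate 2), with 0 genes at an adjusted p under 0.05, 2 at an unadjusted p under 0.05 higher in WT (8.09% of all genes) and 1 lower (7.09% of all genes). The genes named next are described by the naming rule, and none passed the adjusted test. St3gal6, a sialyltransferase, had 18.8 and 18.7 CPM in WT against 12.3 and 12.4 CPM (log2 fold change 0.60, standard error 0.17). Tpst2, which adds sulphate to tyrosines of PSGL-1, had 51.9 and 49.2 CPM against 35.6 and 34.8 CPM (log2 fold change 0.52, standard error 0.14). Gcnt1, which branches the core glycan, had the opposite sign, with 11.1 and 7.98 CPM against 17.2 and 13.4 CPM (log2 fold change -0.68, standard error 0.26). Their adjusted p-values were 0.275, 0.273 and 0.325 in edgeR. B4galt1, Fut4 and Chst2 had log2 fold changes of -0.06, -0.23 and 0.59, with overlapping groups. Fut7, the fucosyltransferase that leukocytes need for selectin binding, was below the filter, with at most 0.314 CPM.

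All 12 genes for intracellular integrin activation were tested, with a median log2 fold change of 0.22, which was -0.075 without WT replicate 2, 0.12 without Qa-2- replicate 2, 0.39 without WT replicate 1 and 0.47 without Qa-2- replicate 1. By edgeR 0 had an adjusted p under 0.05 and 1, Rap1a, an unadjusted p under 0.05 (15.2% of all genes). Rap1a, a small GTPase that switches integrins to the binding state, had 114.4 and 124.8 CPM in WT against 88.5 and 78.9 CPM in uteri of Qa-2- mice (log2 fold change 0.52, adjusted p = 0.289 in edgeR). Without overlap, 4 of the 12 were higher in WT (25.4% of all genes) and 2, Skap1 and Cyth1, lower (24.5% of all genes). Rap1b, a relative of Rap1a, and the leukocyte kindlin gene Fermt3 had log2 fold changes of 0.46 each and were among the 4. Tln1, the talin gene, had 0.30 and Cyth1 had -0.14. Skap1, a T cell adaptor, had -0.81 at a level near 1 CPM.

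Among 14 genes for signals that switch on endothelial adhesion molecules, 10 were tested. The median log2 fold change was -0.01 (0.050 without WT replicate 1 and 0.16 without Qa-2- replicate 1), with 0 at an adjusted p under 0.05 in edgeR and 1 called by DESeq2 (4.83% of all genes). At an unadjusted p under 0.05, 2 were higher in WT (8.09% of all genes) and 1 lower (7.09%). Without overlap, 4 were higher (25.4% of all genes) and 1 lower (24.5%). Il1a and Il1b, both ligands of the IL-1 receptor, had opposite signs. Il1a had 30.8 and 12.1 CPM in WT against 44.4 and 98.1 CPM in Qa-2- uteri (log2 fold change -1.73, standard error 0.57, adjusted p = 0.296 in edgeR and 0.0260 by DESeq2). Il1b had 2.22 and 1.46 CPM against 0.564 and 0.6004 CPM (log2 fold change 1.65, standard error 0.44, adjusted p = 0.271 in edgeR). Tnf was at or near 1 CPM or below in each library. Tnfrsf1b, the inducible TNF receptor, had a log2 fold change of 0.57 and Tnfrsf1a one of 0.38, and both were among the 4. Nfkbia and Tnfaip3, which NF-kB itself induces, had log2 fold changes of -0.12 and -0.55, with overlapping groups.

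Genes with the most similar pattern over the 4 libraries were named for each member, by the root mean square difference of centred log2 CPM. For Icam1 the nearest were Hmox1, Ropn1l and Tmem192 (difference 0.04 to 0.06) and for Vcam1 Lpcat2, Tmem273 and Sox4 (0.08 to 0.11). For Selp they were Cd59b, Gm42928 and Emc9 (0.01 to 0.04). For Itgam they were Popdc2, Tpm2 and Tpm1 (0.03 to 0.05), of which both Tpm genes encode tropomyosins of smooth muscle. For Itgb2 they were Pip4k2a, Cited2 and Nrg2, for Selplg Igkv10-96, Was and Gm21092, for Itga4 Gm25262, Pycr1 and Plekhg2, and for Itgal Nmi, Zfp729b and Gm48226, with differences from 0.02 to 0.04. The mean of the endothelial side was nearest to Ctsz, Mospd1 and H2-K2 and that of the leukocyte side to 1700008J07Rik, Pfkfb4 and Ldhb. The likeness is over 4 libraries that all genes share and is a description only.

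Markers of fetal tissue were unequal between the libraries. The summed level of 8 trophoblast and yolk sac markers was 6.56 and 79.6 TPM in WT and 416.3 and 21.8 TPM in Qa-2- uteri. Itga4 and Selplg were both higher in WT replicate 2 and Qa-2- replicate 1, which had the larger sums, than in the other pair of libraries. The part of fetal tissue in these values was not tested. Epithelial markers summed to 2941 and 1900 TPM in WT against 4842 and 4353 TPM in Qa-2- uteri, and their part in the Icam1 value was not tested. Genes that overlap members in the annotation had few counts, at most 40 (Cerkl, on the strand opposite to Itga4), and counting was by strand.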

How the data were processed

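RNA was isolated from frozen uterine tissue, and libraries were made with a directional kit. The submitters' processing notes name STAR 2.7.3a, featureCounts 2.0.0 and GRCm38.p6. Per the file headers, the deposited values are unnormalized counts (read pairs per gene), taken over exons on the reverse strand for pairs mapped at both ends with quality 3 or more. Pairs that fitted several genes or places were not counted.

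Symbols were matched for 55154 of 55421 gene identifiers (267 without). The 14492 genes reaching 1 CPM in 2 or more libraries were compared with edgeR 4.0.16 (TMM, glmQLFit, glmQLFTest) in R 4.3.3, with Benjamini-Hochberg adjustment over all of them, and the rows of the members were read from that fit. CPM are on TMM-scaled library sizes (factors 0.957 to 1.05), and TPM use the deposited exon length. The standard error is the log2 fold change divided by the square root of F. Alternatives were DESeq2 1.42.0, other normalizations and filters, a replicate block and leaving out each library. A floor of 3 counts stands for 0.0731 to 0.0901 CPM, for counting error only. The steps were tested on simulated counts.

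Members and lists were chosen with earlier results of these data known, so no test was made over a list. Named were all members and, in each pathway list, the 2 most abundant genes and the 2 genes at either end of the fold changes. Other genes of the lists, such as Itgb7, Fut7, Tnf, Madcam1 and Prf1, were named after their values were seen. The libraries of a group differed by more than sampling noise (mean chi-square per gene 206.7 in WT and 129.8 in Qa-2-). They are separate mice of a group, 1 library each.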

Additional observations from a re-analysis of the deposited data

How the results depend on the processing

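No member was called under any of the alternatives run. Over all genes 0 were called, against 700 with DESeq2 (404 higher and 296 lower in WT), 61 without a filter and 2 with the replicate block, and between 0 and 45 with a library left out, 45 without WT replicate 2. Of the pathway genes, DESeq2 called 5 (Cdh5, Icam2, Pecam1, Podxl and Il1a) and edgeR 0. An unadjusted p under 0.05 was found for 2199 genes, against 1331 with the replicate block, 3625 when the block joined unlike numbers (a crossed pairing chosen after seeing the data) and 776 to 2242 with a library left out, 776 without Qa-2- replicate 2. With library totals alone 2309 genes had an unadjusted p under 0.05, 852 higher and 1457 lower in WT, against 1172 and 1027 with TMM. The median over all genes was then -0.08 in place of 0.01. Among members 1 had such a p, against 2 without a filter, 0 with the replicate block, 4 with the crossed pairing and 1 to 3 with a library left out (3 without WT replicate 1, 2 without WT replicate 2 or Qa-2- replicate 1). The deviations of same-numbered libraries had a correlation of -0.37. With 2 libraries per group the deviations mirror each other, so this value cannot show whether the replicate numbers pair the mice. The cause of these changes was not tested.

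The median of the endothelial side was 0.60 on the log2 scale, from 0.51 to 0.77 with 4 libraries and from 0.27 to 0.99 with a library left out. That of the leukocyte side was 0.37, from 0.27 to 0.38 and from -0.056 (without WT replicate 2) to 0.71 (without WT replicate 1). With a library left out the log2 fold change of Icam1 ran from -0.037 to 0.99, that of Selplg from -0.18 to 0.74, that of Itga4 from -0.61 to 0.19 and that of Itgal from -0.20 to 0.38, and Itgal was -0.035 with library totals alone. The single library of a group in these fits is assumed to vary like the others. The difference in log2 ratio of the sides, 0.13, ran from -0.57 to 0.83 with a library left out and from 0.10 to 0.37 otherwise, so its sign depends on single libraries. Depth limits Sele, with 11 to 45 counts.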
